A study of Caenorhabditis elegans with 8 samples.

Results

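Cholesterol-deprived worms that had been fasted were compared with cholesterol-deprived worms that had been fed. The comparison rests on 4 of the 8 arrays of the study, chosen by their titles: the 2 titled Chol (-) fasting and the 2 titled Chol (-) fed. All samples were adult Caenorhabditis elegans of strain N2, the wild-type laboratory strain, on day 4 of adulthood. The fasted deprived group had been kept without cholesterol since hatching and was then deprived of food. The fed deprived group had been kept without cholesterol in the same way and stayed on food. The other 4 arrays, 2 of fasted and 2 of fed worms given cholesterol, Chol (+), supplied an estimate of spread and a second fasting response. Worms of all 4 groups were raised on nematode growth plates to young adulthood and then moved to plates with FUDR, a nucleotide analogue that blocks the production of progeny. The labels give the length of the fast in different ways: 24 h in the sample source names and 48 h, from day 2 of adulthood, in the treatment text. The series title puts the study's question as how cholesterol bears on the transcription factor DAF-16 and on the longer life that follows fasting. The 2 replicates are called independent, but no shared or separate day or culture is stated, so p-values measure the spread between these samples alone.

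Nematodes cannot make the sterol ring and take up cholesterol from food, where it serves membranes and is the starting material of dafachronic acids, the steroid hormones that bind the nuclear receptor DAF-12. On fasting, worms draw on intestinal fat through lipases and beta-oxidation, in which the nuclear receptor NHR-49 and its target acs-2 are the best known components. The intestine also makes the digestive proteases and the lysozymes, lectins and other secreted proteins that meet ingested bacteria, many of them under the p38 kinase PMK-1, while DAF-16, the worm FOXO factor held back by insulin signalling, governs stress and longevity genes.

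Transcripts were measured on 1-colour Affymetrix arrays and are given as RMA intensities on the linear scale. Array medians lay between 67.2 and 69.2 in the 4 deprived arrays. Replicates of a group correlated across probe sets at r = 0.992 to 0.994, against 0.978 to 0.985 between fasted and fed deprived arrays. RMA gives all arrays nearly the same distribution, so a change in total RNA per worm is not visible. In whole worms, fewer cells of a type and less RNA per cell cannot be told apart either.

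Fasting of deprived worms gave many more deep falls than large rises. By limma over 22548 probe sets, 223 were higher in fasted worms (0.989% of those tested) and 433 were lower (1.92%), at an adjusted p under 0.05. In the text, "rose" and "fell" refer to this threshold. With each gene taken by its brightest probe set, 184 of 17118 genes rose (1.07%) and 357 fell (2.09%). These shares are the background for the counts of each gene list below. The median log2 change was 0.88 among the genes that rose and -1.53 among those that fell, against -0.02 over all genes. Of the probe sets, 139 fell at least 4-fold and 59 at least 8-fold, whereas 5 rose at least 4-fold and 0 rose at least 8-fold. The fasted and fed arrays did not overlap for 8030 genes (46.9%), so an absence of overlap between 2 and 2 arrays carries little weight by itself. The counts depended on single arrays: without fed deprived array 2, 30 probe sets rose and 228 fell, without fed deprived array 1, 77 and 207, and without fasted deprived array 2, 60 and 214. Rises were the less stable side when 1 array was left out. In every such fit, 14 of the 184 genes that rose and 140 of the 357 that fell passed the threshold. The split into falls and rises also depended on the model. With replicate number as a block, lower probe sets no longer outnumbered higher ones, as given in the section on processing below.

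**Figure D1:**
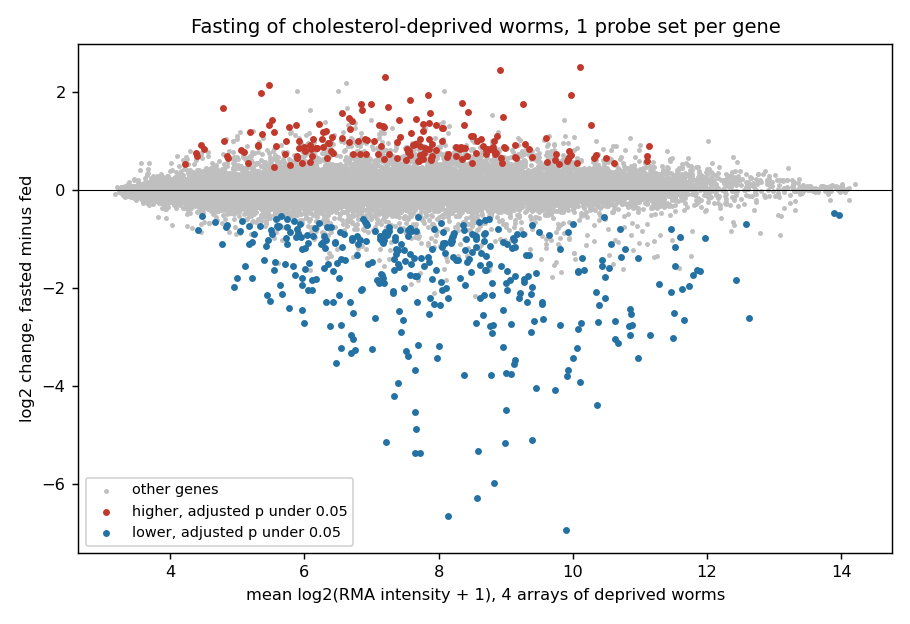
Log2 change on fasting of deprived worms (vertical) against mean log2 intensity over the 4 deprived arrays (horizontal), with 1 point per gene. The 357 genes that fell (blue) reach -6.92, and the 184 that rose (red) reach 2.51.

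The deepest falls included genes of secreted and lysosomal proteins. The invertebrate-type lysozyme gene ilys-5 had intensities of 86.2 and 85.3 in fasted deprived worms, against 10956 and 10124 in fed deprived worms. The fasted pair lay far below the fed pair, with a log2 change of -6.92 ± 0.15 (SE, n = 2 per group), a 121-fold difference (adjusted p = 2.48e-06). Its other probe sets gave -7.02 and -7.88, and all 3 are marked by the maker as able to bind related transcripts. The PMK-1 target sysm-1 read 26.8 and 27.6 in fasted worms and 3117 and 2542 in fed worms (log2 -6.64 ± 0.18, adjusted p = 5.13e-06). C17H12.8, another PMK-1 target, read 31.1 and 56.4 in fasted worms and 3717 and 3017 in fed worms (log2 -6.29 ± 0.29, adjusted p = 6.89e-05). Neither gene's groups came near to each other. The fasted values of both were dim, and without detection calls the sizes of such falls are better read as lower bounds. The lysozyme gene lys-2 read 83.8 and 84.2 in fasted worms and 3081 and 2940 in fed worms (log2 -5.15 ± 0.14, adjusted p = 5.13e-06).

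Proteins of digestion and heme handling were among the same 15 deepest falls. hrg-11.2, of the heme-responsive hrg family, read 53.2 and 59.1 in fasted worms and 3547 and 3671 in fed worms (log2 -5.98 ± 0.15, adjusted p = 5.13e-06). ctsa-1.2, a serine carboxypeptidase of the cathepsin A type, read 61.1 and 57.6 in fasted worms and 2500.2 and 2328 in fed worms (log2 -5.32 ± 0.16, adjusted p = 1.1e-05). Both had tight pairs in each group. The lipase gene lips-11 read 37.4 and 35.4 in fasted worms and 1101 and 1086 in fed worms (log2 -4.87 ± 0.20, adjusted p = 3.63e-05). dod-19, one of the genes downstream of DAF-16 that the factor represses, read 333 and 250.1 in fasted worms and 6223 and 5816 in fed worms (log2 -4.38 ± 0.28, adjusted p = 0.00029). The C-type lectin gene clec-41 fell by 4.47 on the log2 scale. The other falls were in genes for which no role is given here: bcf-1 (log2 -5.37), Y105C5B.15 (log2 -5.36), D1086.3 (log2 -5.13), C14C6.5 (log2 -5.09), K12H4.7 (log2 -4.53) and F28H7.3 (log2 -4.19). All 15 passed the threshold with any 1 array left out. Over all genes, 16 had a fed mean above the upper quartile of all values (8.52 on the log2 scale) and a fasted mean below the median (6.12), and 0 genes made the reverse move.

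**Figure D2:**
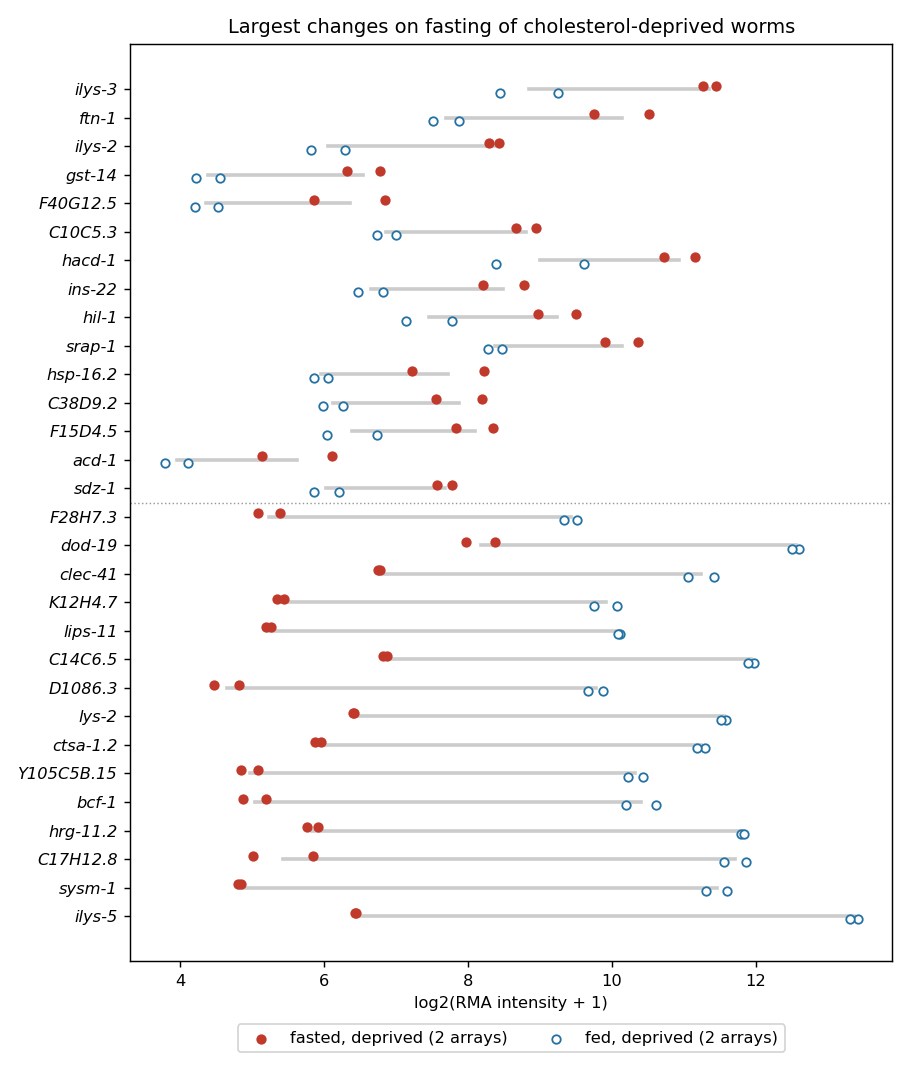
Log2 intensity of the 15 genes with the largest rise (above the dotted line) and the 15 with the largest fall (below it) in each deprived array: filled red points are the 2 fasted arrays, open blue points the 2 fed arrays, and grey lines join the group means. Falls such as ilys-5 (log2 -6.92) are longer than the longest rise, ilys-3 (2.51).

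The largest rises were smaller and more mixed in kind. ilys-3, an invertebrate-type lysozyme gene like ilys-5, moved the other way: 2781 and 2469 in fasted deprived worms, against 607 and 347 in fed deprived worms (log2 2.51 ± 0.29, adjusted p = 0.00552, a 5.70-fold difference). Another member, ilys-2, read 343 and 313 in fasted worms and 55.3 and 77.0 in fed worms (log2 2.31 ± 0.32, adjusted p = 0.0121). ftn-1, which encodes an iron-storing ferritin, read 1460.3 and 864 in fasted worms and 233 and 182 in fed worms (log2 2.44 ± 0.33, adjusted p = 0.0114). The probe set of ftn-1 is marked as able to bind related transcripts. In each of these 3 genes both fasted arrays were above both fed arrays, which the rule for naming the largest changes required. gst-14, a glutathione S-transferase gene, read 79.0 and 108 in fasted worms and 17.7 and 22.5 in fed worms (log2 2.16 ± 0.18, adjusted p = 0.00107). Its fed values lie below the lower quartile of all values (4.69 on the log2 scale), where the change is understated by the added constant. hacd-1, a hydroxyacyl-CoA dehydrogenase gene of fat breakdown, read 1689 and 2274 in fasted worms and 333 and 781.0 in fed worms (log2 1.94 ± 0.36, adjusted p = 0.0346).

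Genes of signalling, chromatin and stress were among the other large rises. The insulin-like peptide gene ins-22 read 294 and 438 in fasted worms and 87.8 and 112.2 in fed worms (log2 1.84 ± 0.27, adjusted p = 0.0153). hil-1, a linker histone gene, read 727 and 499.5 in fasted worms and 218 and 139 in fed worms (log2 1.78 ± 0.28, adjusted p = 0.0183). The small heat shock gene hsp-16.2 read 148 and 297 in fasted worms and 65.7 and 57.0 in fed worms (log2 1.76 ± 0.29, adjusted p = 0.0243). Fasted and fed arrays did not overlap in these 3 genes, as the naming rule required, and the 2 fasted arrays of hsp-16.2 lay furthest apart. The remaining members were C10C5.3 (log2 1.95 ± 0.15, adjusted p = 0.00089), F40G12.5 (log2 1.99), srap-1 (log2 1.77), C38D9.2 (log2 1.75), F15D4.5 (log2 1.70), the degenerin-type channel gene acd-1 (log2 1.68) and sdz-1 (log2 1.65), a gene switched on in the zygote.

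Of the 15 largest rises, ilys-3, gst-14 and C10C5.3 passed the threshold whichever array was left out, and 12 did not. Leaving out fed deprived array 2 ended the calls of ftn-1 (adjusted p = 0.0851), C38D9.2 (0.063), F40G12.5 (0.143), ins-22 (0.0584), hil-1 (0.102), hsp-16.2 (0.152), F15D4.5 (0.0842), srap-1 (0.0894), acd-1 (0.106) and sdz-1 (0.212). Leaving out fed deprived array 1 ended those of F40G12.5 (0.0755), ilys-2 (0.0732), ins-22 (0.0908), hsp-16.2 (0.0914), srap-1 (0.101), acd-1 (0.139) and sdz-1 (0.0996). Without fasted deprived array 2, calls were lost for hacd-1 (0.191), ilys-2 (0.067), F40G12.5 (0.0626), ins-22 (0.0864), F15D4.5 (0.107), srap-1 (0.116) and sdz-1 (0.191). Without fasted deprived array 1, they were lost for ilys-2 (0.0505), hil-1 (0.0656), hacd-1 (0.0657) and sdz-1 (0.0834). The calls of hacd-1, acd-1, hsp-16.2 and sdz-1 also ended without either fed array given cholesterol, and those of hacd-1 and acd-1 without either fasted one. The second probe set of srap-1 gave log2 1.46 and did not pass (adjusted p = 0.0739).

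Falls in 4 lists of immunity and bacterial digestion, which share some members such as lys-2, stand beside 2.09% of all genes that fell and 1.07% that rose. Among 16 measured lysozyme genes, 9 fell and 2 rose (median log2 -0.62), and those that rose were ilys-2 and ilys-3. lys-1 read 337 and 291 in fasted worms and 3369 and 3363 in fed worms (log2 -3.42 ± 0.17, adjusted p = 7.79e-05), and lys-8 fell by 3.12. Among 19 genes of the p38 PMK-1 pathway and its targets, 10 fell and 0 rose, with a median log2 change of -1.18. The infection response gene irg-3 read 77.8 and 92.3 in fasted worms and 848 and 699 in fed worms (log2 -3.17 ± 0.19, adjusted p = 0.000197). Of 220 C-type lectin genes, which encode sugar-binding secreted proteins, 23 fell and 2, clec-3 and clec-264, rose (median log2 -0.09). clec-160 and clec-187 had log2 -2.45 and -2.05. Among 57 saposin-like and other antimicrobial peptide genes, 9 fell and 1, fipr-2, rose (median log2 -0.12). spp-8, of the saposin-like family, read 145 and 192 in fasted worms and 955 and 993 in fed worms (log2 -2.54, adjusted p = 0.000985), and spp-18 fell by 2.84.

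Several digestive and lysosomal hydrolases fell. The proton pump and autophagy genes gave no call. Over all genes 2.09% fell and 1.07% rose, so lists of that size would hold few calls at those shares. Of 15 aspartyl protease genes, 6 fell and 0 rose (median log2 -0.73). asp-1, an intestinal member, read 844 and 1200.5 in fasted worms and 8262 and 8042 in fed worms (log2 -3.02 ± 0.18, adjusted p = 0.000201). asp-3 read 722 and 868 in fasted worms and 4007 and 4536 in fed worms (log2 -2.43), and asp-17 fell by 3.76. The 18 cathepsin-type proteases, serine carboxypeptidases included, counted 7 falls and 0 rises (median log2 -0.45). The cathepsin B-like gene cpr-9 read 1055 and 506 in fasted worms and 5334 and 4486 in fed worms (log2 -2.74). Its fasted arrays differed from each other by more than its fed arrays did, yet the groups were well apart. Of 19 subunit genes of the vacuolar proton pump, which acidifies the lysosome, 0 passed the threshold of limma in either direction (median log2 -0.06, changes from -0.90 to 0.44), and 5 had an unadjusted p under 0.05. Of 30 autophagy genes, with the lysosomal regulator hlh-30 among them, 0 passed as well, with 23 positive changes (median log2 0.13) and 10 genes at an unadjusted p under 0.05. Over all genes, 7733 of 17118 changes were positive and 2740 had an unadjusted p under 0.05, which is the background for these and the later counts of either kind. hlh-30 read 551 and 447 in fasted worms and 349 and 274 in fed worms (log2 0.68, adjusted p = 0.145).

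Several enzymes that break down lipids in the lysosome fell too. Of 36 lipase and lipid droplet genes, 5 fell and 0 rose (median log2 -0.09). The lysosomal lipase gene lipl-1 read 24.2 and 38.9 in fasted deprived worms and 185 and 251 in fed deprived worms (log2 -2.77 ± 0.33, adjusted p = 0.00601). lipl-2, lipl-5 and lipl-7 fell (log2 -1.82, -1.1 and -0.65), and lips-11 is given above. The call of lipl-5 ended without either fed deprived array (adjusted p up to 0.137), and that of lipl-2 without fed array 1 or either fasted array of deprived worms (up to 0.109). lipl-4, the best studied member, did not pass (log2 0.64, adjusted p = 0.393). Among 21 genes of sphingomyelin and ceramide metabolism, 3 fell and 1 rose (median log2 -0.17). asah-1, an acid ceramidase gene, read 28.2 and 40.6 in fasted worms and 323 and 345 in fed worms (log2 -3.26, adjusted p = 0.00161). asah-2, its paralogue, read 145 and 199 in fasted worms and 640 and 543 in fed worms (log2 -1.79, adjusted p = 0.00255). The acid sphingomyelinase gene asm-2 fell (log2 -1.79, adjusted p = 0.0467) and the sphingomyelin synthase gene sms-2 rose (log2 0.84, adjusted p = 0.0402), but asm-2 was lost on leaving out any of 6 arrays and sms-2 on leaving out any of the 8, with adjusted p up to 0.253 and 0.209, both without fed deprived array 2.

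Fat metabolism in the cytosol, mitochondria and peroxisomes changed at a few genes. In the 68 genes of the NHR-49 circuit, acyl-CoA synthetases and beta-oxidation, hacd-1 rose and 3 genes fell (median log2 -0.05). Those that fell were ech-9, an enoyl-CoA hydratase family gene, with 34.3 and 35.4 in fasted worms and 291 and 201 in fed worms (log2 -2.76, adjusted p = 0.00808), and the peroxisomal acyl-CoA oxidase gene acox-1.5, with 65.2 and 92.5 in fasted worms and 364 and 291.5 in fed worms (log2 -2.06, adjusted p = 0.00179). The third was the acyl-CoA synthetase gene acs-1 (log2 -1.31, adjusted p = 0.00462). acs-2, the mitochondrial acyl-CoA synthetase gene known for its rise on fasting, read 2480.1 and 2413 in fasted deprived worms and 1186 and 1996 in fed deprived worms. Its arrays did not overlap, and the change of log2 0.67 did not pass the threshold. nhr-49 itself had log2 0.32 (adjusted p = 0.327), and the call of ech-9 ended without fed deprived array 1 (0.0555) or fasted deprived array 2 (0.0531).

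Of 23 genes of fatty acid synthesis, desaturation and elongation, 0 passed the threshold of limma (median log2 -0.02), and 3 had an unadjusted p under 0.05. The stearoyl-CoA desaturase gene fat-7 read 53.1 and 63.5 in fasted worms and 140 and 129 in fed worms, without overlap, and did not pass (log2 -1.2, adjusted p = 0.0954). fat-5 and fat-6 had log2 -0.43 and -0.32 (adjusted p = 0.376 and 0.59). Among 30 lipid binding and transport genes, 4, far-3, vit-1, vit-5 and vit-4, fell and 2, far-7 and far-4, rose (median log2 -0.28). The yolk protein gene vit-1 read 465 and 326 in fasted worms and 1254.5 and 1259.7 in fed worms (log2 -1.69, adjusted p = 0.00691), a call that ended without fed deprived array 2 (adjusted p = 0.0539). vit-2 did not pass (log2 -0.07). The call of far-3 (log2 -2.75) ended without either fed deprived array, fasted deprived array 2 or either fed array given cholesterol (adjusted p up to 0.111). far-7, a fatty acid and retinol binding protein gene, rose with 940.3 and 740.2 in fasted worms and 349 and 253 in fed worms (log2 1.49, adjusted p = 0.0234), and its call ended without any 1 of the 4 deprived arrays (up to 0.145).

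Sterol handling gave 1 call, beside 2.09% of all genes that fell and 1.07% that rose. Of 31 genes of sterol transport and dafachronic acid synthesis, 1 fell and 0 rose (median log2 -0.04). The fall was in daf-36, whose Rieske-type oxygenase takes the first step from cholesterol towards dafachronic acids: 45.4 and 35.5 in fasted worms and 107 and 81.0 in fed worms (log2 -1.2, adjusted p = 0.0392). It was lost on leaving out any 1 of the 8 arrays (adjusted p up to 0.205, without fasted deprived array 2). In worms given cholesterol, daf-36 had log2 -0.99 (adjusted p = 0.053). The difference between the 2 responses, -0.21, did not pass (adjusted p = 0.844). The Niemann-Pick C1-type sterol transporter genes ncr-1 and ncr-2 had log2 0.27 and 0.55 (adjusted p = 0.375 and 0.0624). daf-9, the cytochrome P450 gene that completes the hormone, and daf-12, the gene of its receptor, had log2 -0.06 and 0.07 (adjusted p = 0.891 and 0.807). strm-1, a sterol methyltransferase gene, did not pass either (log2 0.14, adjusted p = 0.708).

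Genes downstream of DAF-16 moved in part. Of 18 measured genes known as activated by DAF-16, 2 rose and 0 fell (median log2 0.28): ftn-1 and hsp-16.2, described above. Of the 18 changes, 12 were positive, and 8 further genes of the list were not measured. The list members hsp-12.6 and hsp-12.3 had positive changes that did not pass, with values given at the end. The most negative change of the list was that of dod-3, with 157 and 153 in fasted worms and 666 and 337 in fed worms. It did not pass (log2 -1.61, adjusted p = 0.11). sod-3, the mitochondrial superoxide dismutase gene often used to report DAF-16 activity, read 87.7 and 58.1 in fasted worms and 76.7 and 72.0 in fed worms, with overlap (log2 -0.06, adjusted p = 0.94). The metallothionein gene mtl-1 read 1513 and 675 in fasted worms and 1263 and 499 in fed worms, so that replicates differed more than groups (log2 0.35, adjusted p = 0.838). Of 13 genes known as repressed by DAF-16, 5 fell and 0 rose (median log2 -0.29): dod-19, dod-24 (log2 -3.17), ins-7 (log2 -2.72), dod-23 (log2 -1.83) and the yolk protein gene vit-5 (log2 -0.51, adjusted p = 0.0334). ins-7, an insulin-like peptide gene, read 198 and 221 in fasted worms and 1786 and 1076 in fed worms (adjusted p = 0.00157). The fall of vit-5 was lost on leaving out any 1 array (adjusted p up to 0.204, without fed deprived array 2).

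Within insulin, TOR and AMPK signalling, 2 of 39 genes rose and 0 fell (median log2 0.15). ist-1, the gene of an insulin receptor substrate, read 109 and 120.5 in fasted worms and 57.6 and 58.2 in fed worms (log2 0.97, adjusted p = 0.0185). pdk-1, a kinase gene acting below the insulin receptor, read 532 and 681 in fasted worms and 347 and 363 in fed worms (log2 0.76, adjusted p = 0.0292). Another of its probe sets gave -0.21, so the probe sets of pdk-1 disagree. The calls of ist-1 and pdk-1 ended without either fed deprived array or fasted deprived array 2 (adjusted p up to 0.119 and 0.143), and that of pdk-1 without any array of cholesterol-given worms as well. daf-16 read 404 and 579 in fasted worms and 415 and 511 in fed worms, with overlap (log2 0.07, adjusted p = 0.931), and daf-2, the insulin receptor gene, had log2 0.24 (adjusted p = 0.575). aak-2, the AMPK catalytic subunit gene, read 980.1 and 1081 in fasted worms and 747 and 665 in fed worms and did not pass (log2 0.55, adjusted p = 0.0728). Of 24 insulin-like peptide genes, ins-22 and ins-23 (log2 1.43) rose and ins-7 fell. The call of ins-23 ended without either fed deprived array or fasted deprived array 2 (adjusted p up to 0.109).

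The calls among iron, heme and uptake genes were mostly falls. They stand beside 2.09% of all genes that fell and 1.07% that rose. Among 52 iron and heme genes, 4 fell and ftn-1 rose (median log2 -0.02). hrg-11.3 read 245 and 120.4 in fasted worms and 2675 and 2959 in fed worms (log2 -4.03), and hrg-11.4 and hrg-7 had log2 -1.84 and -1.63. Of 49 genes for uptake across the gut membrane, 3 fell and 0 rose (median log2 0.02). They were the folate transporter gene folt-2 (log2 -2.03), the inositol transporter gene hmit-1.1 (log2 -1.63) and the sugar transporter gene swt-6 (log2 -1.02). The call of hmit-1.1 ended without either fasted deprived array or fed deprived array 2 (adjusted p up to 0.0945), and that of swt-6 without any array but fasted deprived array 1 (up to 0.191). aagr-1, a glucosidase gene of the acid type, read 166 and 198 in fasted worms and 892 and 787 in fed worms (log2 -2.2, adjusted p = 0.000276). With aagr-2 (log2 -1.36) it made up the 2 falls among 23 genes of the glyoxylate cycle, gluconeogenesis, trehalose and glycogen, in which 0 rose (median log2 -0.04). The call of aagr-2 ended without either fed deprived array, fasted deprived array 2 or either fed array given cholesterol (adjusted p up to 0.128).

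Detoxification families moved both ways. Of 64 UDP-glucuronosyltransferase genes, which attach sugar acids to small molecules, 4 rose and 4 fell (median log2 0.02). ugt-44 read 187 and 140.0 in fasted worms and 1182 and 1254 in fed worms (log2 -2.91, adjusted p = 0.000822), whereas ugt-36 read 59.3 and 81.1 in fasted worms and 24.4 and 29.5 in fed worms (log2 1.34, adjusted p = 0.00724, and 0.0538 without fed deprived array 1). Of 45 glutathione S-transferase genes, 2 rose and 6 fell (median log2 -0.09), with gst-14 and gst-30 (log2 0.73) higher and gst-10 (log2 -2.04) and gstk-1 (log2 -1.46) among the lower. The call of gst-10 ended without fed deprived array 2 (adjusted p = 0.0546). Of 79 cytochrome P450 and flavin monooxygenase genes, 1, cyp-34A7, rose and 4, cyp-36A1, cyp-35C1, cyp-13A2 and cyp-14A5, fell (median log2 0.03). Apart from cyp-14A5, for which this was not run, each of these calls ended without fed deprived array 2 (adjusted p up to 0.149) and without fasted deprived array 2 (up to 0.204). fmo-2, a flavin monooxygenase gene that fasting is known to induce, read 27 and 439 in fasted worms and 33.4 and 118.9 in fed worms (log2 0.79, adjusted p = 0.863). Its second replicate was far above its first at both feeding states. Of 46 ABC transporter genes, 3 fell and 1 rose (median log2 -0.07), led by pgp-1 (log2 -2.34, adjusted p = 0.000664). pgp-12 (log2 -1.09) and abt-4 (log2 -0.92) fell and mrp-2 (log2 0.65) rose, calls that ended without either fed deprived array or fasted deprived array 2 (adjusted p up to 0.251).

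Most cuticle collagens had a negative change. Of 146 collagen genes, 8 fell and 0 rose (median log2 -0.31), and 11 had a positive change. col-8 read 313 and 209 in fasted worms and 1079.7 and 1020.0 in fed worms (log2 -2.03, adjusted p = 0.00229), and col-101, col-143 and col-140 fell (log2 -2.45, -2.28 and -2.27). Those 3 calls ended without fed deprived array 2 (adjusted p = 0.116, 0.0661 and 0.167), and those of col-101 and col-140 also without fed deprived array 1 (0.052 and 0.0669) or fasted deprived array 2 (0.106 and 0.156). The call of col-140 was lost too without fasted deprived array 1 (0.067) or either fasted array given cholesterol (0.0588). Of 40 transthyretin-related genes, 4 fell and 1 rose (median log2 -0.19): ttr-6, ttr-46, ttr-18 and ttr-35 were lower and ttr-21 was higher. Among histones, 30 of 34 had a positive change (median log2 0.35), with hil-1 alone past the threshold. Over all genes 2.09% fell and 1.07% rose, and the receptor, F-box A and neuropeptide counts that follow are near those shares or below them. Of 259 nuclear hormone receptor genes, nhr-84 (log2 1.04) and nhr-18 (log2 0.74) rose and 0 fell (median log2 0.02). Of 171 F-box A genes, fbxa-24 and fbxa-83 rose and 3, fbxa-157, fbxa-128 and fbxa-19, fell (median log2 -0.02, and 0.01 under cyclic loess scaling). Of 86 neuropeptide genes, flp-3 rose (log2 0.81). Of 52 chaperone genes, hsp-16.2 rose and hsp-17 (log2 -1.43) and hsp-43 (log2 -0.98) fell. Of 35 genes of redox and metal defence, the glutathione peroxidase gene gpx-5 fell (log2 -1.09). Of 21 genes of methionine and one-carbon metabolism, pcyt-1 rose (log2 0.88) and cth-2 fell (log2 -1.21). The calls of nhr-84, nhr-18, fbxa-83, fbxa-157, fbxa-128, flp-3, hsp-16.2, hsp-17, gpx-5, pcyt-1, ttr-35 and ttr-21 were lost without fed deprived array 2, and all of these but that of nhr-84 without some other array as well. The call of hsp-43 was lost without fed deprived array 1 or fasted deprived array 2.

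Several cellular machines gave no call. Over all genes 2.09% fell and 1.07% rose, so each such list would hold few calls at those shares. Of 75 cytosolic ribosomal protein genes, 50 respiratory chain and ATP synthase genes, 33 proteasome genes, 18 glycolytic genes and 22 mitochondrial and ER stress genes, 0 passed in either direction by limma. Unadjusted p-values under 0.05 were found for 0, 13, 0, 1 and 0 of them. Their median log2 changes were 0.03, 0.19, 0.07, -0.04 and -0.02, and that of the ribosomal genes turned to -0.02 under cyclic loess scaling. Among 17 alcohol and aldehyde dehydrogenase genes and 10 aquaporin genes, 0 passed as well, with 3 and 1 at an unadjusted p under 0.05. In the respiratory chain 45 of 50 changes were positive, between -0.10 and 0.57.

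**Figure D3:**
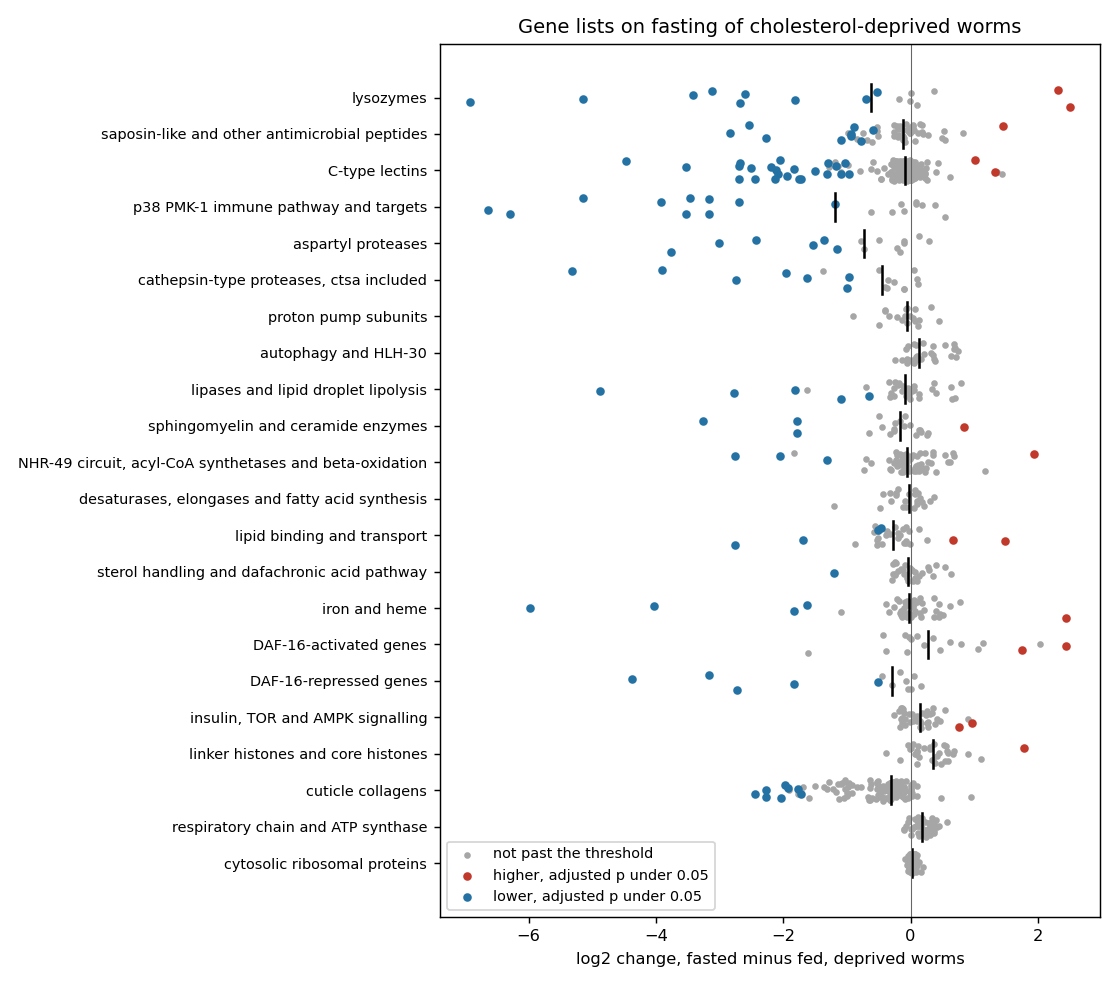
Log2 change on fasting of deprived worms for the measured members of 22 gene lists, 1 point per gene, coloured where the adjusted p is under 0.05, with a black bar at the list's median. The lysozymes (9 lower, 2 higher) and the p38 list (10 lower, 0 higher) spread far to the left, and the ribosomal proteins lie close to 0.

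Tissue markers gave context for these lists. Of 21 intestinal markers, 5 fell and 0 rose (median log2 -0.49): cpr-1, asp-1, pgp-1, act-5 and ifb-2, which include the genes of the brush border actin, act-5, and of an intestinal intermediate filament, ifb-2. Of these, cpr-1, asp-1 and pgp-1 also stand in the protease and transporter lists above. The summed intensity of the 21 was 33148 and 31715 in fasted worms and 50714 and 47869 in fed worms. Such linear sums weigh bright genes most, here among them asp-1 (844 and 1200.5 in fasted worms, 8262 and 8042 in fed worms). No call was given by 16 of the 21. The gut transcription factor gene elt-2 and the gut esterase gene ges-1, which define the tissue, did not pass (log2 -0.45 and -0.91, adjusted p = 0.201 and 0.16). Of 32 body wall muscle markers, 4, tnt-2, unc-27, unc-87 and unc-15, fell and 0 rose (median log2 -0.31), and the summed intensity was 20313 and 17973 in fasted worms and 24092 and 25099 in fed worms. Of 44 germline and oocyte markers and 63 sperm markers, 0 passed in either direction by limma, with 1 and 4 at an unadjusted p under 0.05. Of 38 neuronal markers, unc-18 rose, and of 57 markers of the zygotic embryo, sdz-1, vet-2 and sdz-30 rose and 0 fell. Of 17 pharyngeal markers 0 passed, with 2 at an unadjusted p under 0.05, and among 17 of hypodermis and seam and 9 of coelomocytes and uterus, grd-3 and cup-4 fell. Markers named here were chosen after their values were seen. The part of tissue composition in the falls of intestinal genes was not tested.

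The fasting response of worms given cholesterol, from 4 other arrays, was set beside that of deprived worms. Both responses were tested with the same estimate of spread for each gene, from all 8 arrays. A gene with little spread is thus favoured in both tests, and the 2 lists of calls are not independent. With cholesterol, 372 genes rose (2.17%) and 553 fell (3.23%). Of the 357 genes that fell in deprived worms, 264 also fell with cholesterol, which is 73.9% of the deprived list and 47.7% of the cholesterol list. Of the 184 genes that rose in deprived worms, 78 also rose with cholesterol, 42.4% of the deprived list and 21% of the other. The direction was shared by 352 of the 357 and 174 of the 184, but the share over all genes was not counted. Among the 116 genes that fell at least 4-fold in deprived worms, 105 also fell with cholesterol. Among the deepest falls, ilys-5 had log2 -6.92 in deprived worms and -5.38 with cholesterol, sysm-1 had log2 -6.64 in deprived worms and -6.61 with cholesterol, and dod-19 had -4.38 and -5.09. For ilys-5, another probe set passed the test of a difference described below (-1.72 ± 0.19, adjusted p = 0.0395). The probe set that represents the gene (-1.54, adjusted p = 0.0817) and the remaining one (-1.98, adjusted p = 0.229) did not. F42A10.7 and F59A7.2, chosen after their values were seen, were called in opposite directions: log2 -0.79 in deprived worms and 1.47 with cholesterol for F42A10.7, and 0.93 and -0.90 for F59A7.2. The call of F42A10.7 in deprived worms ended without any array but fasted deprived array 1 and the fed arrays given cholesterol (adjusted p up to 0.168, without fed deprived array 2).

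A direct test of the difference between the responses called few genes. Of all probe sets, 11 had a higher response in deprived worms (0.0488%) and 11 a lower one (0.0488%). By genes, these were 9 higher (0.0526%) and 9 lower (0.0526%). Among them were 3 genes that rose with cholesterol and did not pass the threshold in deprived worms. The alcohol dehydrogenase gene adh-1 read 2098 and 4186 in fasted deprived worms and 2981 and 3261 in fed deprived worms, but 4976 and 6478 in fasted and 369 and 329 in fed worms given cholesterol. Its response was log2 -0.07 in deprived worms and 4.02 with cholesterol (difference -4.1 ± 0.42, adjusted p = 0.0372). The aquaglyceroporin gene aqp-1 read 919.9 and 1266 in fasted deprived worms and 613 and 810.4 in fed deprived worms, against 2507 and 2268 in fasted and 156 and 179.9 in fed worms given cholesterol. Its difference was -3.21 ± 0.28 (adjusted p = 0.0184). For acs-2 the fed worms given cholesterol read 168 and 138, far below the fed deprived arrays given above, and the fasted ones read 1860 and 2600.1, close to the fasted deprived arrays (difference -3.18 ± 0.37, adjusted p = 0.0476). In all 3 genes the fed arrays given cholesterol were the lowest of the 8, and the fed deprived arrays lay several-fold above them. The glyoxylate cycle gene icl-1 had log2 0.11 in deprived worms and 1.31 with cholesterol, and the difference of -1.2 did not pass (adjusted p = 0.232).

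**Figure D4:**
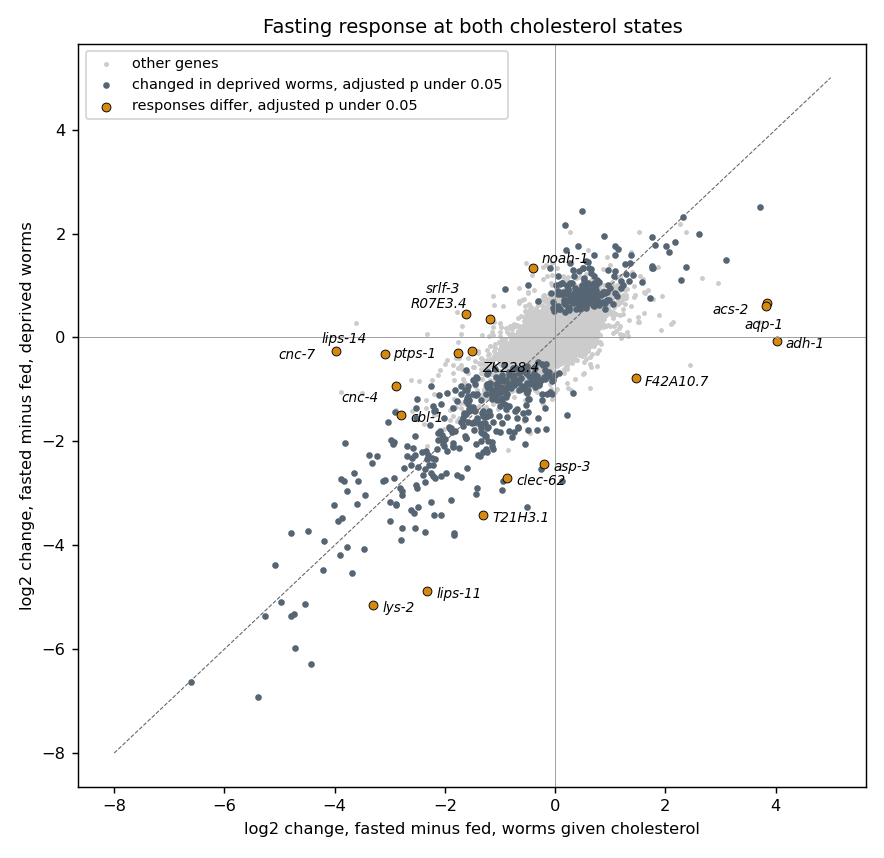
Log2 change on fasting in deprived worms (vertical) against that in worms given cholesterol (horizontal), 1 point per gene, with the line of equal response dashed. Orange points mark the 18 genes whose responses differed; adh-1, acs-2 and aqp-1 lie far to the right, and cnc-7 and lips-14 far to the left, all near 0 in deprived worms.

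Other genes fell in deprived worms more than with cholesterol. The aspartyl protease gene asp-3 read 5347 and 4420 in fasted and 5943 and 5195 in fed worms given cholesterol, so its log2 change of -2.43 in deprived worms stood beside -0.19 (difference -2.23 ± 0.21, adjusted p = 0.0282). T21H3.1 read 694 and 543 in fasted deprived worms and 6886 and 6270.1 in fed deprived worms (log2 -3.42), against -1.31 with cholesterol (difference -2.11 ± 0.21, adjusted p = 0.0351). lys-2, lips-11 and clec-62 differed by -1.85, -2.55 and -1.83 (adjusted p = 0.0392, 0.0395 and 0.0238). For lips-11 the fasted arrays given cholesterol read 38.9 and 38.2, as dim as the fasted deprived arrays (37.4 and 35.4). Its difference lay in the fed arrays, with 155 and 249 given cholesterol and 1101 and 1086 when deprived. The lysosomal genes lipl-1 and asah-1 leaned the same way, with log2 0.13 and -0.50 with cholesterol, but their differences of -2.90 and -2.76 did not pass (adjusted p = 0.145 and 0.13). The same holds for ftn-1, gst-14 and hsp-16.2, whose larger rises in deprived worms differed by 1.96, 1.98 and 1.35 (adjusted p = 0.376, 0.0603 and 0.432). Fed worms given cholesterol read 2241 and 1299 for ftn-1 and 237 and 244 for hsp-16.2, above the fed deprived arrays of both genes. For gst-14 they read 14.6 and 13.3, below its fed deprived arrays.

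For 9 genes the response was higher in deprived worms than with cholesterol. cnc-7, a caenacin antimicrobial peptide gene, read 53.2 and 82.1 in fasted deprived worms and 82.6 and 77.0 in fed deprived worms, with overlap, against 45.3 and 55.5 in fasted and 812 and 788.5 in fed worms given cholesterol (difference 3.70 ± 0.28, adjusted p = 0.0184). Its relative cnc-4 read 253 and 291 in fasted deprived worms and 531 and 504 in fed deprived worms, a smaller fall than with cholesterol (log2 -0.93 and -2.89). The lipase gene lips-14 read 20.1 and 17.6 in fasted deprived worms and 21.3 and 26.2 in fed deprived worms, dim values in both groups, and fell by 3.09 with cholesterol. noah-1, which encodes a zona pellucida domain protein of the cuticle matrix, read 365 and 424 in fasted deprived worms and 166 and 145 in fed deprived worms (log2 1.34, adjusted p = 0.00272), against log2 -0.41 with cholesterol (difference 1.74 ± 0.19, adjusted p = 0.0395). Worms given cholesterol read 685 and 573 when fasted and 847 and 813 when fed, all above the deprived arrays of noah-1. The other probe set of noah-1 did not pass in deprived worms (log2 0.32). Each of the 18 gene calls of a difference was lost without some single array: the number of calls among probe sets ran from 0 to 8 when 1 array was left out, against 22 on all arrays.

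**Figure D5:**
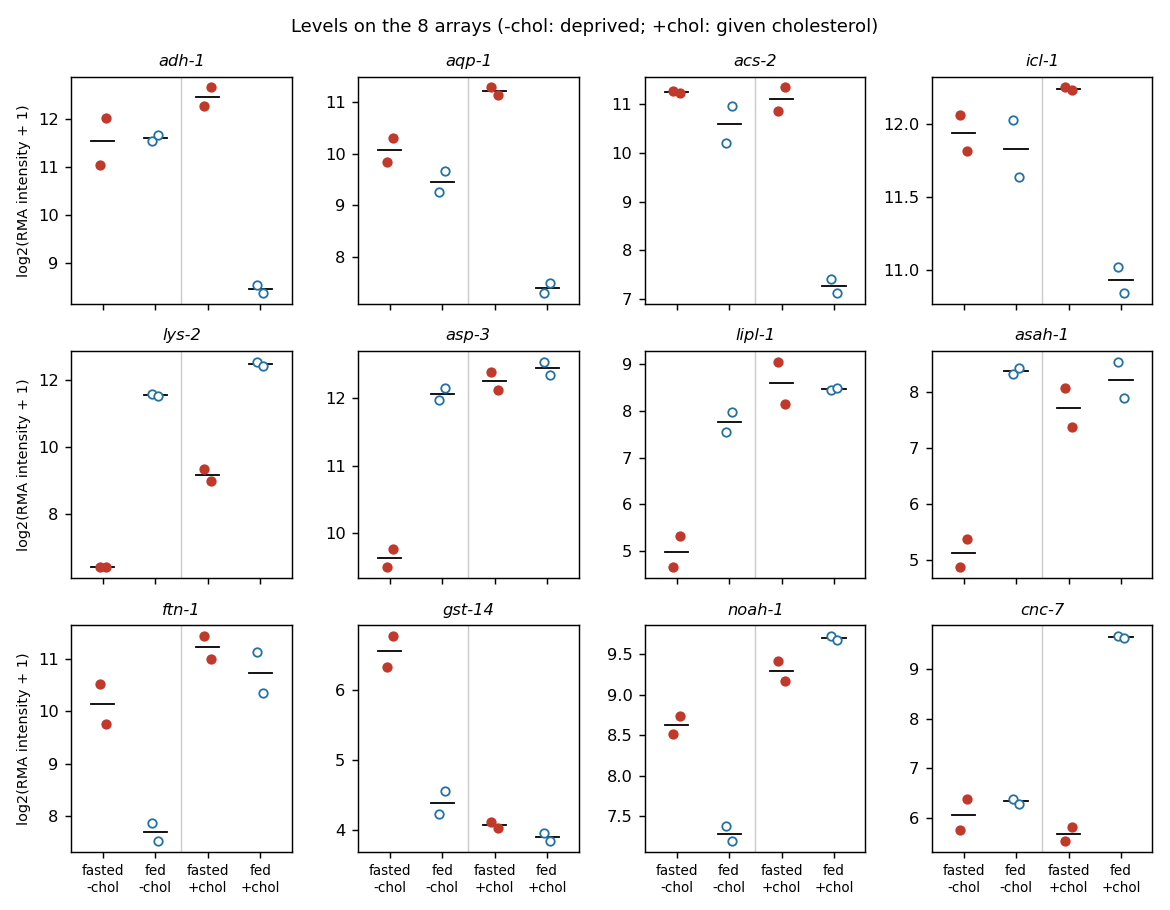
Log2 intensity of 12 genes in the 8 arrays, with fasted arrays as filled red and fed arrays as open blue points, deprived worms on the left and worms given cholesterol on the right of each panel, and bars at the group means. Each panel has its own vertical range; for adh-1, aqp-1 and acs-2 the fed arrays given cholesterol stand alone at the bottom.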

How the data were processed

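Gene expression was measured on 8 Affymetrix arrays, for which 100 ng of total RNA was turned into biotin-labelled cRNA, according to the labels. Each deposited value is the intensity of 1 probe set on 1 array, on a linear scale. Robust multi-array averaging (RMA) is named in the submitters' processing notes, with a version not given in the sources used here. This method corrects background, gives all arrays the same distribution and combines probes, so shifts of all transcripts are removed. Detection calls were not used, and the small number of arrays limits precision.

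Of 22625 probe sets, 77 controls were left out. The platform annotation gave 1 symbol to 20766 of the rest, several to 887 and none to 895; 20701 were found by gene number in RefSeq's gene table for WBcel235, from which names and the order of genes were taken, but no coordinates. A gene was represented by its 1-symbol probe set with the highest mean over the 8 arrays. limma 3.58.1 (R 4.3.3; lmFit, eBayes, 1 mean per group, 4 residual and 3.37 prior degrees of freedom) was fitted to log2(intensity + 1), which understates the change of dim genes. Tests were two-sided, with p-values adjusted by Benjamini-Hochberg across all tested probe sets and a threshold of 0.05; errors are standard errors of that model. The model was tested on simulated data. Figures used matplotlib 3.10.9 in Python 3.11.15.

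Named were the 15 largest rises and the 15 largest falls without overlap, up to 10 genes each way whose fasting response differed between cholesterol states, up to 4 called members of each of 41 gene lists, and 30 genes fixed by interest. The comparison and lists were chosen with earlier results of these data known. Members outside the rule that account for counts of 5 or fewer were chosen after their values were seen. Alternatives were the replicate block, the 4 deprived arrays alone, other pseudocounts, scalings, filters and priors, and leaving out each array.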

Additional observations from a re-analysis of the deposited data

Results flagged for a closer look

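The fasting response of 18 genes differed between deprived worms and worms given cholesterol by limma's interaction test over all probe sets, at an adjusted p under 0.05. Values are the log2 response of deprived worms minus that of worms given cholesterol, ± SE with n = 2 arrays in each of the 4 groups.

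The response was lower in deprived worms for 9 genes. Those with a rise given cholesterol were adh-1 (-4.1 ± 0.42, adjusted p = 0.0372), aqp-1 (-3.21 ± 0.28, adjusted p = 0.0184), acs-2 (-3.18 ± 0.37, adjusted p = 0.0476) and F42A10.7 (-2.26 ± 0.19, adjusted p = 0.0184). Those with a deeper fall in deprived worms were lips-11 (-2.55), asp-3 (-2.23), T21H3.1 (-2.11), lys-2 (-1.85) and clec-62 (-1.83).

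The response was higher in deprived worms for the other 9. For cnc-7 (3.70), lips-14 (2.78), srlf-3 (2.06), cnc-4 (1.96), R07E3.4 (1.54), ptps-1 (1.47), cbl-1 (1.3) and ZK228.4 (1.26) the genes fell with cholesterol and fell less, or did not pass the threshold, in deprived worms. srlf-3 read 561 and 545 in fasted deprived worms and 421 and 391.5 in fed deprived worms, against 54.3 and 62.2 in fasted and 171 and 189.9 in fed worms given cholesterol, so the deprived groups lay above both others. noah-1 (1.74) rose in deprived worms. That gene's change with cholesterol did not pass (log2 -0.41, adjusted p = 0.134). Each of the 18 was also called with a replicate block, and none was called in every one of the 8 models that left out 1 array (the highest adjusted p per gene ran from 0.0882 to 0.266).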

How the results depend on the processing

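Counts of probe sets depended on the model, and so did the share of calls that were higher. Against 223 higher and 433 lower probe sets, a replicate block gave 872 and 858 (50.4% of calls higher, against 34%), the 4 deprived arrays alone gave 70 and 263, and matching the arrays on their brightest probe sets (the bright-set shift) gave 276 and 424 (39.4% higher). Of the 223, 85 rose at least 2-fold. Leaving out probe sets marked as shared left 266 lower. Leaving out 1 array gave 30 to 191 higher and 207 to 391 lower. The 22 calls of a difference between responses became 115 with the replicate block, 42 with a trended robust prior and 7 with a pseudocount of 16, and ran from 0 to 8 without 1 array. The labels do not say that replicate numbers mark a shared day; deviations of same-numbered arrays correlated at 0.467 between fasted and fed deprived worms (0.218 to 0.53 over all 6 pairs of groups), so the paired values are given here only.

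Of 116 named calls, 56 held whichever array was left out, 60 were lost without some array and 41 under another setting. 0 changed sign for the probe set that represents the gene, but another probe set of pdk-1 gave -0.21 against 0.76. Of the 33 named genes that did not pass, 5 passed under some setting (aqp-1, aak-2 and ncr-2 as rises, dod-3 and fat-7 as falls). The causes were not tested. The promoter motif search was not run. The number of arrays, 2 a group, limits what small changes could be called.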

Other observations

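Some genes that fell in deprived worms sit next to each other in the RefSeq gene order of assembly WBcel235. Counting runs of at least 3 adjacent measured protein-coding genes that all fell, 4 runs were found, and 0 runs of genes that rose; the runs were looked for after the values were seen and were not tested. F01D5.1, F01D5.2, F01D5.3 and F01D5.5 had log2 changes of -3.53, -3.23, -2.41 and -2.61, and gstk-1, ZK1320.2 and ZK1320.3 had -1.46, -2.94 and -2.2. The lysozyme genes lys-4, lys-5 and lys-6 had -2.69, -0.52 and -1.81, and K10D11.3, K10D11.6 and K10D11.5 formed the other run. Of the probe sets behind lys-4, lys-5 and lys-6, 2 are marked as able to bind related transcripts, as are 2 of the gstk-1 run and 1 of the F01D5 run.

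Many of the changed genes carry sequence names only. Of the 357 genes that fell, 129 had a sequence name and sat in none of the gene lists, and so did 73 of the 184 that rose. The heat shock genes hsp-12.6 and hsp-12.3, chosen after their values were seen, had log2 1.14 and 1.06 in deprived worms without passing (adjusted p = 0.0654 and 0.193), against 2.66 and 2.95 in worms given cholesterol. Both stand in the list of genes activated by DAF-16. Neither was among the 18 genes whose responses were called different.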
